A study of Mus musculus with 4 samples.

Results

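The homeobox gene Meox2 and 9 further genes of mesenchymal transcription factors, Meox1, Prrx1, Tcf21, Twist1, Twist2, Zeb1, Zeb2, Snai1 and Snai2, were followed in mouse liver tumors in which p53 had been switched back on. All 10 genes had values, in 25 of the 45037 probe sets of the array, taking each probe set (a group of short probes for 1 transcript region) that is annotated to exactly 1 of these symbols. The set was chosen by the rise of Meox2, among the largest in the comparison of 0 with 8 days of doxycycline, so its values are a description and have no test. The other genes were listed by their role, but with the same comparison in view, so counts over the set are descriptions as well.

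The tumors were driven by HrasV12, an activated form of the signalling protein HRAS, and grew from liver progenitor cells (LPCs) transplanted into the livers of recipient mice. They carried tet-off shp53, a short hairpin RNA against p53 that is silenced by doxycycline. The p53 off group had 0 days of doxycycline and thus an active hairpin, and the p53 on group had eaten chow with doxycycline for 8 days. There were 2 arrays per group, 1 tumor sample each, and all 4 shared the oncogene and the hairpin. Strain, sex and age of the mice, and whether a group holds 1 or several progenitor cell clones, are not given in the labels. No sample had doxycycline without the hairpin, so p53, doxycycline and 8 days of time cannot be told apart. Whether the replicates came from different mice is not stated, so a p-value here reflects the scatter among the 4 samples, part of which may be technical. Recipient livers contribute vessels, fibroblasts and immune cells to such tumors, and in bulk RNA fewer cells of a type and less RNA per cell cannot be told apart.

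Meox1 and Meox2 are homeodomain proteins that pattern the somites, and Meox2, first found as a growth arrest gene of vascular smooth muscle, can activate the cell cycle inhibitor gene Cdkn1a. Prrx1 is a homeodomain factor of limb and connective tissue mesenchyme. Twist1, Twist2 and Tcf21 are basic helix-loop-helix (bHLH) proteins, which pair with E proteins to bind the E-box, a short DNA motif. Zeb1, Zeb2, Snai1 and Snai2 are zinc finger repressors that also bind E-boxes and silence epithelial genes such as Cdh1 in epithelial-mesenchymal transition (EMT). In liver these factors are mostly known from stellate cells and portal fibroblasts, and Zeb2 also from macrophages.

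Start site sequences were at hand in RefSeq (GRCm38.p6) for 7 of the 10 genes, with 10 start sites in all. The 250 bases before the start are shown for Meox2, for Twist1 and Twist2, close relatives that changed in opposite directions, and for Snai1, 5′ to 3′ on the gene's strand; capitals mark E-boxes (CANNTG, which reads as an E-box on both strands).
Meox2 (chr12:37108290-37108539, plus strand): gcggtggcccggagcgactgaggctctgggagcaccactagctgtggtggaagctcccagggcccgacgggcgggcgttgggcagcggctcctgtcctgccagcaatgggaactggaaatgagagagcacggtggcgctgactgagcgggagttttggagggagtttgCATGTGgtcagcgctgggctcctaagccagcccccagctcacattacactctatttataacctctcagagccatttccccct
Twist1 (chr12:33957421-33957670, plus strand): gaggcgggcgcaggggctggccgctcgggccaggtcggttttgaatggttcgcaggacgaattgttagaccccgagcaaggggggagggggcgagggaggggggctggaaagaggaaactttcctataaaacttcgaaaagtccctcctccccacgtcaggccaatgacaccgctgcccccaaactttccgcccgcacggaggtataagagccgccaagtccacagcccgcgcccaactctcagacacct
Twist2 (chr1:91801211-91801460, plus strand): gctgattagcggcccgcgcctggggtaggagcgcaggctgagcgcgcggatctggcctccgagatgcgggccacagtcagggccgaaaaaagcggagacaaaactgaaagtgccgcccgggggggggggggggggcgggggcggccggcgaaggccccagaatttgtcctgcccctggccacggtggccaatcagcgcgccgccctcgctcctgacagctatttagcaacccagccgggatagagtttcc
Snai1 (chr2:167537945-167538194, plus strand): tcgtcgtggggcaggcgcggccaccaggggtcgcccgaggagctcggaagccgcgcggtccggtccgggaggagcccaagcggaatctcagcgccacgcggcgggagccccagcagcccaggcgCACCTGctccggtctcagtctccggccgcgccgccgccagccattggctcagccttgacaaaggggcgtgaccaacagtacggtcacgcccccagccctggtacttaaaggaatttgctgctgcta
Meox2 held 1 E-box, which began 82 bases before the start, and Snai1 held 1, which began 126 bases before it and has the letters CACCTG that Snail and Zeb proteins favour. No E-box was found in these windows of Twist1 and Twist2, nor in those of Prrx1, Tcf21 and Zeb2, while 66.2% of 32841 start site windows of the same length held one and 17.2% held CACCTG or its reverse complement. The p53 half-site, searched by name on both strands, was matched once in each of a pair of overlapping Zeb2 windows, 76 and 102 bases before their starts, in no other member window and in 7.13% of all windows. A match is only a description of the letters.

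The median log2 value per array lay between 7.29 and 7.39, and the lowest and highest values of any probe set were 4.66 and 14.9. With 2 arrays per group, precision is limited throughout. As an RNA quality measure, the difference between the 3′ and 5′ beta-actin controls was 0.262 and 0.395 without doxycycline and 0.478 and 0.492 with it, so it moved with the groups; its part in the results was not tested. In the limma fit over all probe sets, 22.8% passed an adjusted p of 0.05, with 5076 higher and 5196 lower in p53 on. Median centring of the arrays made the split 4139 and 6841, and scaling by the spike-in controls made it 10206 and 3794, which moved the median change of all probe sets from 0.03 to 0.16.

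Meox2 was below the median of all probe sets in p53 off and above it in p53 on. Its probe set 1424234_s_at, whose name marks probes that can match more than 1 transcript, stood at 6.84 and 6.65 (log2) in p53 off and at 10.67 and 10.08 in p53 on. The p53 on arrays were higher by 3.63 ± 0.20 on the log2 scale (SE, n = 2 against 2), which is 12.4-fold and the rise of rank 3 among 45037 probe sets. The other probe set, 1424233_at, stood at 6.01 and 5.85 in p53 off and at 8.31 and 7.86 in p53 on, a difference of 2.16 ± 0.16 (4.47-fold, rank 85). Both probe sets were far apart between the groups, with the smallest difference between any p53 on and p53 off array at 3.24 and 1.85. In both, p53 on replicate 1 was above replicate 2, by 0.59 and 0.45. RMA values carry no detection call.

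Meox1, the paralog of Meox2, rose by far less. It stood at 8.85 and 8.86 in p53 off and at 9.52 and 9.36 in p53 on, a change of 0.58 ± 0.083 (1.5-fold; limma adjusted p = 0.0071). The groups did not overlap. Over 11 alternatives its adjusted p ran from 0.0019 to 0.0563, the highest without p53 off replicate 2.

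Prrx1 had 6 probe sets, and 5 of them rose. The brightest, 1425528_at, stood at 10.91 and 10.49 in p53 off and at 11.95 and 11.85 in p53 on, a change of 1.20 ± 0.15 (2.29-fold; limma adjusted p = 0.0044). The p53 off arrays were less alike here than the p53 on arrays. Probe sets 1425527_at and 1439774_at rose by 1.09 ± 0.071 and 0.89 ± 0.11, and those that span several transcripts of the gene, 1425526_a_at and 1432129_a_at, by 0.81 ± 0.14 and 0.48 ± 0.077. The sixth, 1458004_at, was among the 40% of probe sets with the lowest means, at 5.46 and 5.42 against 5.44 and 5.36, and its groups overlapped. Without p53 off replicate 2 the calls of 1425526_a_at and 1432129_a_at were lost (adjusted p = 0.0792 and 0.0794, the highest over 10 alternatives, with the lowest at 0.0054 and 0.0041).

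**Figure D1:**
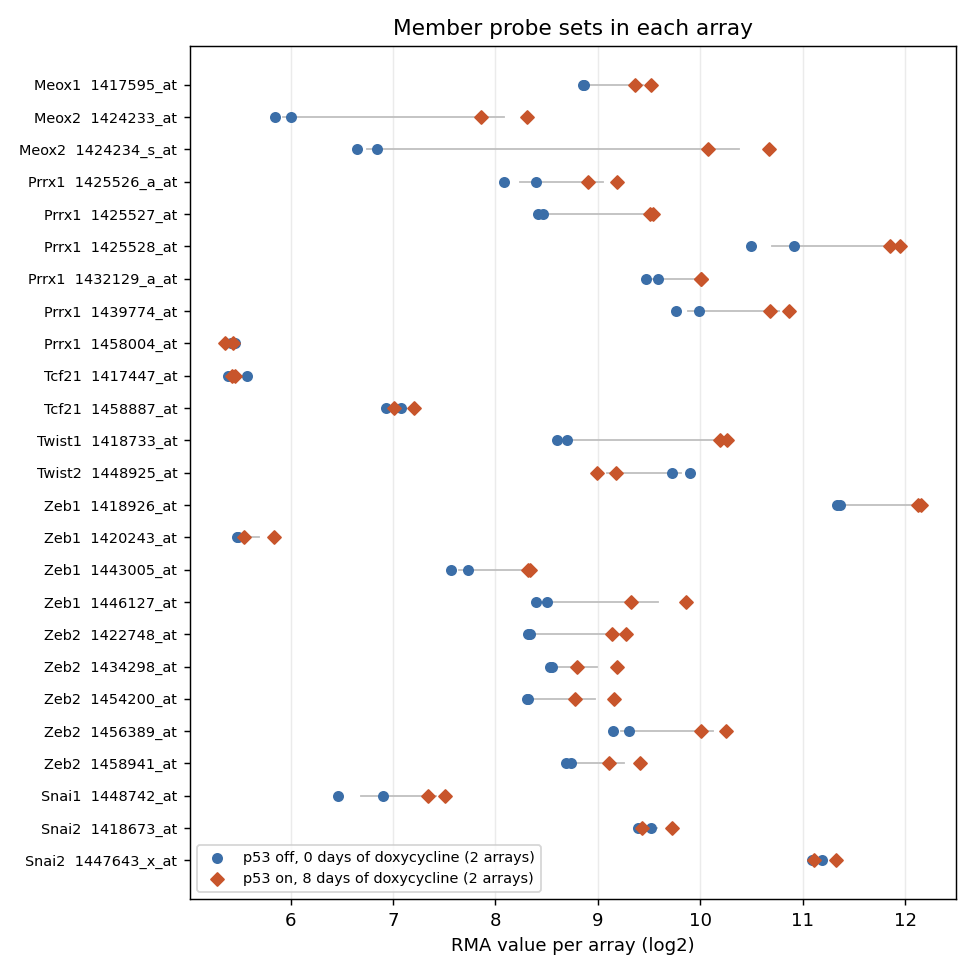
RMA values (log2, x axis) of the 25 member probe sets in each of the 4 arrays, with p53 off as circles and p53 on as diamonds; grey lines join the group means. Meox2 moves farthest to the right, Twist2 moves to the left, and the groups overlap for Tcf21, Snai2 and 1 Prrx1 probe set.

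The bHLH genes split. Twist1, which directs mesoderm and cranial mesenchyme, rose from 8.70 and 8.60 in p53 off to 10.20 and 10.26 in p53 on, by 1.58 ± 0.078 (2.99-fold; limma adjusted p = 0.00054). Both groups were tight and lay 1.5 apart at the nearest. Twist2, a factor of dermis and bone that shares most of its bHLH region with Twist1, fell from 9.90 and 9.72 to 8.99 and 9.18, a change of -0.72 (SE 0.10; 1.65-fold lower; limma adjusted p = 0.0073). It was the only member with a called fall, and it kept its sign in every alternative run, with changes between -0.82 and -0.59. Tcf21, known from epicardium and from quiescent stellate cells, was not called. Its probe set 1458887_at stood at 7.08 and 6.93 against 7.01 and 7.21 (0.10 ± 0.10; limma adjusted p = 0.538), and 1417447_at, a dim probe set, at 5.39 and 5.58 against 5.46 and 5.43. The groups overlapped in both.

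Zeb1 rose in 3 of its 4 probe sets. The brightest, 1418926_at, stood at 11.34 and 11.37 in p53 off and at 12.15 and 12.12 in p53 on, a change of 0.78 ± 0.070 (1.72-fold; limma adjusted p = 0.0018). The replicates of each group nearly coincided there. Probe set 1443005_at rose by 0.68 ± 0.084 and 1446127_at by 1.14 ± 0.18, the last with p53 on values of 9.86 and 9.33 and with its call lost without p53 off replicate 2 (adjusted p = 0.0709; range over 11 alternatives 0.0008 to 0.0709). The fourth, 1420243_at, was dim, at 5.49 and 5.47 against 5.84 and 5.54 (0.21 ± 0.11; limma adjusted p = 0.248); it was called only without p53 on replicate 2 (0.0457), and its adjusted p reached 0.72 without p53 on replicate 1.

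Zeb2 rose in 4 of 5 probe sets. The brightest, 1456389_at, stood at 9.30 and 9.15 in p53 off and at 10.25 and 10.01 in p53 on, a change of 0.90 ± 0.11 (1.87-fold; limma adjusted p = 0.0042). Probe sets 1422748_at, 1454200_at and 1458941_at rose by 0.88 ± 0.082, 0.65 ± 0.13 and 0.54 ± 0.12. The fifth, 1434298_at, had groups that did not overlap, at 8.56 and 8.53 against 9.19 and 8.80, but missed the threshold (0.45 ± 0.14; limma adjusted p = 0.0692; range over 11 alternatives 0.0068 to 0.259). It passed without p53 on replicate 2, with spike-in scaling and with dim probe sets left out. The calls of 1454200_at and 1458941_at were lost without either p53 off array (adjusted p up to 0.119 and 0.142, from as low as 0.0028 and 0.0053). In all 5 probe sets p53 on replicate 1 was above replicate 2, by 0.14 to 0.39. Several marker means were also higher in that array, those of macrophages (10.21 against 10.04), fibroblasts (12.84 against 12.76), hepatocytes (7.46 against 7.26) and progenitor and bile duct cells (8.85 against 8.36), while the endothelial mean was lower (8.77 against 9.02). Single genes weighed on some of these means. The widest gaps were those of Cyp2e1 among hepatocyte markers (9.71 against 7.39) and Afp among progenitor markers (8.47 against 5.33). Among macrophage markers the widest was that of Vsig4 (8.53 against 7.47), and among fibroblast genes that of Mfap5 (11.56 against 10.70). The fibroblast genes Dcn (13.17 against 13.29) and Col6a3 (14.00 against 14.11) were lower in that array. The part of these markers in the Zeb2 values was not tested.

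Snai1, the founding Snail factor of EMT, rose from 6.90 and 6.46 to 7.34 and 7.51, by 0.74 ± 0.16 (1.67-fold; limma adjusted p = 0.0247). The p53 off replicates differed by 0.44, the widest gap within that group among the member probe sets. Its adjusted p ran from 0.0094 to 0.0775 over 11 alternatives, and the call was lost with the replicate number as a block, without p53 off replicate 2 and without p53 on replicate 2. Snai2, or Slug, a known p53 target in blood progenitors, was not called. Its probe sets stood at 9.52 and 9.39 against 9.72 and 9.43 (1418673_at, 0.12 ± 0.12; limma adjusted p = 0.513) and at 11.18 and 11.09 against 11.32 and 11.11 (1447643_x_at, 0.08 ± 0.097; limma adjusted p = 0.625). The groups overlapped in both.

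**Figure D2:**
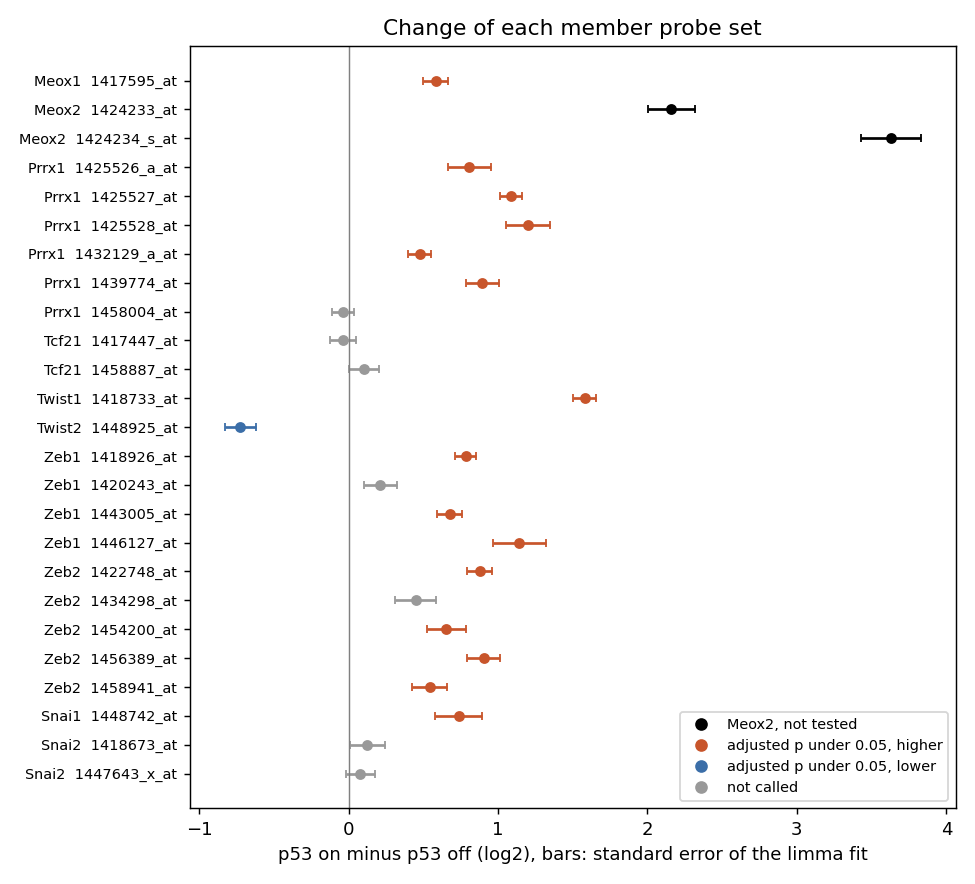
Change of each member probe set between p53 on and p53 off (log2, x axis), with the standard error of the limma fit (n = 2 against 2). Meox2 (black, not tested) lies at 2.16 and 3.63, Twist1 at 1.58 and Twist2 at -0.72, and the grey probe sets did not pass an adjusted p of 0.05.

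Of the 23 probe sets of the genes other than Meox2, 15 passed the test as higher and 1 as lower, with a median change of 0.65. Over all probe sets 11.3% passed as higher and 11.5% as lower, and the median change was 0.03. The groups did not overlap for 18 of the 23, of which 17 were higher in p53 on, against 63.8% and 36.1% of all probe sets. Nothing is read from these counts, because the set was drawn up with this comparison in view. Without p53 off replicate 2 the 15 became 8. With 1 probe set per gene, the brightest, 6 of the 9 genes were higher and 1 was lower, against 14% and 14.7% of 18193 genes.

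Genes with the profile most like that of Meox2 were found by the Euclidean distance between mean-centred log2 values over the 4 arrays, members left out. They were Steap4, a metalloreductase gene, at a distance of 0.355, Fbn2, a microfibril gene, at 0.601, the C-type lectin gene Clec4a3 at 0.622, Agmo, an enzyme gene of ether lipid breakdown, at 0.698 and the matrix proteoglycan gene Lum at 0.728. The distances follow mainly the size of the rise. Among the members Twist1 was nearest to Meox2, at 2.10, and Twist2 was farthest, at 4.39.

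Agmo is also the next gene to Meox2 on the chromosome in the RefSeq gene table. Neighbours were examined after the values had been seen. Agmo stood at 6.17 and 6.16 in p53 off and at 9.26 and 9.37 in p53 on, a rise of 3.15 ± 0.077 that had rank 8 among all genes. The 4 measured genes beyond Agmo did not share its direction: Scin, Ifrd1 and Zfp277 fell by 0.84, 0.62 and 0.56, and Gm7008 was at 0.05. On the other side of Meox2, the next measured genes, Sostdc1 and Lrrc72, were at 0.04 and 0.11 and were not called, Ankmy2 and Tspan13 rose by 0.41 and 0.60, and Bzw2 fell by 0.91. Twist1 lies beside Hdac9, which encodes a histone deacetylase and fell by 1.13 (SE 0.14; limma adjusted p = 0.0036), and beside Ferd3l, which was at -0.01. Of the 20 next measured genes on either side of the 10 members, Agmo alone was called higher in the main fit. The 3 called lower were Hdac9, Abcc1, which is separated from Snai2 by 1 coding gene without a value, and Tbpl1 beside Tcf21. When probe sets marked for shared transcripts were left out, Tbpl1 was at 0.34 and was called higher, the opposite sign (limma adjusted p = 0.026). Its call was lost with probe sets averaged per gene (-0.11, limma adjusted p = 0.289) and without p53 off replicate 2. Over 12 alternatives its limma adjusted p ran from 0.0026 to 0.289. Other next genes were called higher in some alternatives. With probe sets averaged per gene these were Etv4 beside Meox1 (0.31) and Hdac4 beside Twist2 (0.29). With spike-in scaling they were Rnf114 beside Snai1 (0.33) and Gtdc1 beside Zeb2 (0.27), and Rnf114 also passed with quantile normalization (0.30). Over all genes 28.7% were called.

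**Figure D3:**
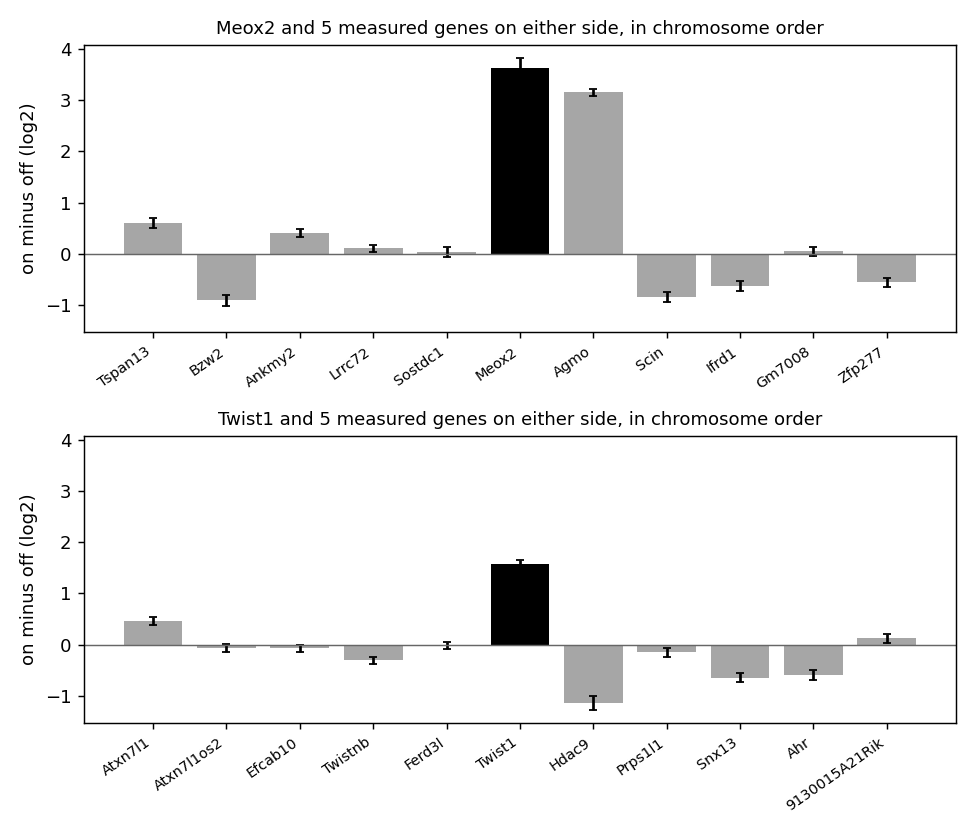
Change between p53 on and p53 off (log2, y axis; bars start at 0, whiskers are standard errors of the limma fit) of Meox2 and Twist1 (black) and of the 5 measured genes on either side (grey) in chromosome order. Agmo at 3.15 stands beside Meox2 at 3.63, while Hdac9 at -1.13 stands beside Twist1 at 1.58.

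Partners and regulators of the factors were taken from lists by role, to be read against the 14% of all genes called higher and the 14.7% called lower. Among 19 other mesenchymal transcription factor genes, 9 rose and 3 fell, with a median of 0.28 against 0.02 for all genes. Tbx20, a T-box gene of heart mesenchyme, rose from 6.0 and 5.61 to 8.26 and 7.78, by 2.21 ± 0.20 (4.63-fold; limma adjusted p = 0.0016). Tshz3 rose by 1.58 ± 0.16 and Ebf1, a factor of B cells, fat and pericytes, by 1.23 ± 0.082. Of 10 somite regulators that act with Meox factors, Tbx18, also a marker of pericytes, rose by 1.65 ± 0.084 (3.15-fold; limma adjusted p = 0.00048), and Pax3 and Eya1 fell by 0.45 and 0.44. Without p53 off replicate 2, 5 of the 19 rose. Pax3 and Eya1 lost their calls without that array and with spike-in scaling, Pax3 also without p53 on replicate 1 (0.0564), and Eya1 also with the replicate number as a block (0.0534), without p53 off replicate 1 (0.0919) and without p53 on replicate 2 (0.0559), with limma adjusted p over all alternatives from 0.0127 to 0.133 for Pax3 and from 0.0090 to 0.151 for Eya1.

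The E proteins and Id proteins decide how bHLH factors bind DNA, the first as partners and the second as inhibitors. A list of 12 genes held these and other bHLH genes, and the others were not called. Of the 12, 2 rose and 2 fell, close to the shares over all genes. All of those called were E or Id protein genes, so the shares among these alone were larger. The E protein gene Tcf4 rose from 11.33 and 11.09 to 12.66 and 12.44, by 1.34 ± 0.12 (limma adjusted p = 0.0015). Of the inhibitors, Id3 rose by 0.68 ± 0.072 and Id1 fell by 0.76 (SE 0.085). With spike-in scaling 6 rose and 1 fell, and 4 rose with quantile normalization, with probe sets averaged per gene and without p53 on replicate 2. Leaving out any of the other arrays gave 1 fall. Of 11 corepressor genes used by Snail and Zeb factors 7 fell (median -0.48). Ezh2 and Suz12, subunits of the Polycomb complex PRC2, fell by 1.02 (SE 0.096) and 0.74 (SE 0.11), and Ctbp2, which binds Zeb proteins, by 0.65 (SE 0.078). Proliferation genes moved with them: 5 of 5 fell, led by Top2a at -1.28. Without p53 off replicate 2, 3 corepressor and 2 proliferation genes fell; Suz12 (0.0823) and Top2a (0.119) lost their calls when probe sets marked for shared transcripts were left out.

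Of 10 epithelial transcription factors that oppose Zeb and Snail proteins, the pioneer factors Foxa1 and Foxa2 fell by 1.78 (SE 0.098) and 0.81 (SE 0.073), and the other 8 were not called. Of 8 kinase and ubiquitin ligase genes that act on Snail proteins, Lats2 rose by 0.30 ± 0.073 and Fbxl14 fell by 0.33 (SE 0.072), counts close to the shares over all genes. Both calls were lost without either p53 off array, without p53 on replicate 1 and with the replicate number as a block. That of Lats2 was also lost without p53 on replicate 2, with median centring and with probe sets averaged per gene, and that of Fbxl14 with spike-in scaling. Of 13 genes of TGF-beta signalling, which induces most EMT factors, 5 rose and 2 fell. The receptor genes Tgfbr3 and Tgfbr2 rose by 1.34 ± 0.096 and 0.98 ± 0.096, and Smad7, an inhibitor of the pathway, fell by 0.82 (SE 0.092). With each array centred on its median 3 rose and 5 fell, and 3 rose without p53 off replicate 1, p53 off replicate 2 or p53 on replicate 1, with 1 fall in either of the first cases.

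Targets of the factors did not move as 1 group. Of 22 epithelial genes that Snail and Zeb factors repress, 9 fell and 3 rose. When probe sets marked for shared transcripts were left out, 0 rose. With a change of at least 1 required, 0 rose and 5 fell. The desmosome gene Pkp2 fell from 11.32 and 11.55 to 8.85 and 8.52, a change of -2.75 (SE 0.14; limma adjusted p = 0.00048), and the keratin genes Krt18 and Krt8 fell by 1.61 and 1.36. Cdh1, named after its value was seen because it is the classical target, fell by 1.20 (SE 0.13), while the junction gene Jup, measured by a probe set marked for shared transcripts, rose by 0.76 ± 0.077. Of 11 genes that usually rise in EMT 3 rose and 4 fell. The matrix protease gene Mmp2 rose by 1.65 ± 0.13, the integrin gene Itga5 fell by 1.10 (SE 0.071), and Cdh2, the mesenchymal cadherin, fell by 0.92 (SE 0.074). Vim, also named after its value was seen, was at -0.24 and was not called (limma adjusted p = 0.0958). Of the cell cycle inhibitor genes that Meox factors can activate, Cdkn1a rose by 1.44 ± 0.099 and Cdkn2a fell by 0.43 (SE 0.074); Cdkn1a is also a direct p53 target. The call of Cdkn2a was lost without either p53 off array (0.0521 and 0.086).

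Several lists of cell type markers had higher means in p53 on. Whether host or tumor cells held this RNA cannot be read from bulk arrays. Fibroblast matrix genes had mean levels of 11.84 to 12.07 in p53 off and 12.76 to 12.84 in p53 on, and 11 of 14 rose (median 0.61), led by Lum at 3.01 ± 0.15 and Dcn at 2.53 ± 0.26. Smooth muscle and pericyte markers had means of 9.45 to 9.58 and of 10.09 to 10.10, and 6 of 12 rose, with Mylk at 2.28 ± 0.080 and the pericyte genes Cspg4 and Abcc9 at 1.17 ± 0.11 and 1.17 ± 0.084. The contractile gene Cnn1 fell by 0.27 (SE 0.072; limma adjusted p = 0.0434), a call that was lost without any 1 of the 4 arrays, with the block and with spike-in scaling (up to 0.23 over 11 alternatives). Endothelial markers had means of 8.39 to 8.46 and of 8.77 to 9.02, and 10 of 16 rose, with Tek at 1.40 ± 0.19. Lyve1, a marker of sinusoidal and lymphatic endothelium, fell by 0.69 (SE 0.14; limma adjusted p = 0.0179), a call that was lost without p53 off replicate 1 (0.0748, the highest over 12 alternatives, with the lowest at 0.0048). Macrophage markers had means of 9.55 to 9.56 and of 10.04 to 10.21, and 9 of 15 rose, with Adgre1 at 1.17 ± 0.092 and Csf1r at 1.16 ± 0.11. Their part in the changes of the members was not tested. Without p53 off replicate 2, 6 fibroblast and 4 endothelial markers rose, and 5 endothelial markers without p53 off replicate 1.

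Stellate cell markers were mixed, with means of 8.43 to 8.52 in p53 off and 8.65 to 8.67 in p53 on. Of 12 genes 3 rose and 2 fell: Cygb and Pdgfrb rose by 1.30 ± 0.086 and 0.93 ± 0.091, and Lrat, the retinoid storage enzyme gene that defines resting stellate cells, fell by 0.85 (SE 0.21), a call that was lost without p53 off replicate 1 (0.113) and without p53 on replicate 2 (0.0634). Mesothelial markers had means of 7.37 to 7.42 and of 6.97 to 6.98. The median change of the 6 genes was -0.03. Msln fell by 2.57 (SE 0.17), far more than the others, which lay between -0.60 and 0.49; Wt1 fell by 0.60 (SE 0.097) and Gpm6a rose by 0.49 ± 0.076; Wt1 lost its call without p53 off replicate 1 (0.0557) and Gpm6a without p53 off replicate 2 (0.0665). T, B and NK cell markers had means of 6.88 to 6.93 and of 7.17 to 7.20. Of 8 genes 2 rose, Nkg7 by 0.93 ± 0.083 and Ncr1 by 0.69 ± 0.12, the last not without either p53 off array. The T and B cell markers on the list were not called, with changes between -0.02 and 0.25. Hepatocyte markers had means of 7.28 to 7.35 and of 7.26 to 7.46, and 2 of 14 fell, close to the share over all genes, with Hnf4a at -0.58 (SE 0.087) and Ahsg at -0.45 (SE 0.12); with spike-in scaling 1 fell and 2 rose, and without p53 off replicate 2 or p53 on replicate 1, 1 fell. Liver progenitor and bile duct markers had means of 9.11 to 9.16 and of 8.36 to 8.85, and 3 of 8 fell and 1 rose, with Cd24a at -1.53 and Krt19 at -1.04; spike-in scaling gave 2 rises. Afp, a fetal liver gene on that list, stood at 9.16 and 9.15 in p53 off but at 8.47 and 5.33 in p53 on, and was not called (-2.25, SE 0.95; limma adjusted p = 0.14). Leaving out either p53 on array made it a call, at -3.82 without replicate 1 and -0.69 without replicate 2. When probe sets marked for shared transcripts were left out, another probe set of Afp was used. It changed by -0.85 and was called (limma adjusted p = 0.0378). RMA values have no zero, so whether a defining marker is absent cannot be read from them.

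**Figure D4:**
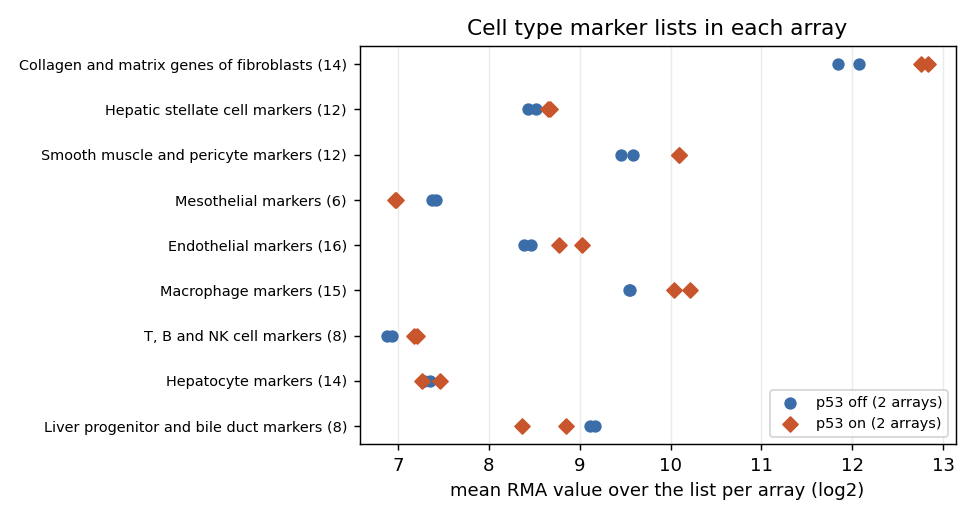
Mean RMA value (log2, x axis) over each cell type marker list in each array, with the number of measured genes in brackets; circles are p53 off and diamonds p53 on. Fibroblast, stellate, smooth muscle, endothelial, macrophage and T, B and NK cell markers lie higher in both p53 on arrays. The T, B and NK mean does so mainly through Nkg7 (0.93) and Ncr1 (0.69), and no T or B cell marker was called. In the mixed stellate list the largest rises are those of Cygb (1.30) and Pdgfrb (0.93). Mesothelial and progenitor means lie lower, the first mainly through Msln (-2.57) and the p53 on spread of the second mainly through Afp (8.47 and 5.33). Hepatocyte markers overlap.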

How the data were processed

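RNA of 4 mouse liver tumor samples had been extracted with Trizol, amplified and biotin-labelled, per the labels' protocols, and hybridized to 1 Affymetrix mouse array each. Deposited values are on the log2 scale, 1 for each probe set; the authors obtained them with RMA, a method that corrects background, equalises array distributions and summarises probes. RMA and limma 3.14.4 are named per the submitters' processing notes. The build behind the authors' probe annotation: not given in the sources used here; start sites and gene order come from RefSeq, GRCm38.p6. Of 45101 probe sets, 64 controls were left out, and 34945 of the rest had exactly 1 gene symbol in the platform annotation.

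The difference of p53 on from p53 off was fitted for all 45037 probe sets by limma 3.58.1 under R 4.3.3 (lmFit, eBayes), with no replicate term (2 residual and 5.53 moderated degrees of freedom), with Benjamini-Hochberg adjustment over all of them and a threshold of 0.05. A second fit used the brightest probe set of each of 18193 genes and served the 20 gene lists, which named 240 genes (227 measured), and the neighbours. The design cannot give a permutation test a p under 0.05. The members and lists were chosen with earlier results of these data known. Text names every member and the 5 genes most like Meox2. Of each list it names up to 3 called genes of largest change, or else the gene of smallest p. Named after their values were seen were neighbours, Cdh1, Jup, Vim, Lyve1, Cnn1, Afp, Cyp2e1, Mfap5 and Vsig4. Alternatives changed the normalization, the block, the filters, the moderation, the size threshold and the probe set summary, or left out 1 array. Figures were drawn with matplotlib 3.10.9.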

Additional observations from a re-analysis of the deposited data

How the results depend on the processing

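No member probe set changed direction among those called. Under spike-in scaling 10206 probe sets were called higher. With a change of at least 1 also required, 902 were called higher and 950 lower, and of the 23 member probe sets other than those of Meox2, 4 were higher and 0 lower (15 and 1 without that requirement), since Twist2 changed by less than 1. Leaving out 1 array at a time gave 1938 to 4644 probe sets higher and 2110 to 4916 lower, and 8 to 16 member probe sets higher and 1 lower in each case, where a lone array has to borrow its spread from the other pair. The fewest calls came without p53 off replicate 2; the cause was not tested. Tbpl1 was at 0.34 without the probe sets named _x_at, _s_at or _a_at, which leaves another probe set for the gene. The labels do not say what same-numbered replicates share. Their deviations correlated across probe sets with r = -0.08. With 1 difference per group, this value cannot decide whether they shared a mouse, a clone or a day. With the replicate number as a block, 3933 probe sets were higher and 4283 lower, and 14 member probe sets were higher and 1 lower. For the Meox2 probe sets the alternatives gave changes of 3.33 to 3.92 (1424234_s_at) and 1.94 to 2.38 (1424233_at). Filters on dim or shared probe sets left out some members, which then have no value.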
